A study of Mus musculus with 26 samples.

Results

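The core circadian clock genes described here are *Clock*, *Arntl* (also called *Bmal1*), *Npas2*, *Per1*, *Per2*, *Per3*, *Cry1*, *Cry2*, *Nr1d1* and *Nr1d2*. These 10 genes were chosen by name from the 50686 genes of the deposited count table, by matching its Ensembl identifiers to gene symbols. All 10 passed the filter on low counts and were tested, but *Npas2* passed only through the libraries of cold-exposed mice. It held at most 6 counts in any other library, and is counted among the 10 below. The table holds RNA-seq of brown adipose tissue (BAT), labelled as the supraclavicular depot, from fat-specific Afadin knockout mice (FAKO) and control littermates. Afadin is a scaffold protein that links cell adhesion molecules to the actin cytoskeleton.

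The mice were C57BL/6J males aged 12 to 16 weeks, all kept first at thermoneutrality, which the labels give as 2 weeks at 30 °C and the study's methods as 14 to 18 days at 29 °C. The libraries fall into 4 groups. WT30 (n = 7) and KO30 (n = 7) are control and FAKO mice left at thermoneutrality, and WT5 (n = 5) and KO5 (n = 7) are control and FAKO mice moved to 5 °C for 6 hours before BAT was taken. FAKO mice carry floxed *Mllt4* alleles, an older name of the Afadin gene *Afdn*, and an Adiponectin-Cre transgene that is active in adipocytes and leaves the other cells of the tissue intact. Whether the control littermates carry the floxed alleles or Cre is not given in the sources used here. The daily light cycle was 12 hours of light and 12 hours of dark, but the hour at which tissue was taken from each group is not given, so that for these genes an effect of cold and a difference in time of day cannot be told apart.

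The clock is a loop of transcription that runs in nearly every cell with a period of about a day. CLOCK or NPAS2 pairs with BMAL1, the product of *Arntl*, binds E-box sequences and turns on the *Per* and *Cry* genes, whose proteins gather and block the pair that made them. In a second loop the same pair turns on *Nr1d1* and *Nr1d2*, which encode the nuclear receptors REV-ERBα and REV-ERBβ, and these repress *Arntl*, *Clock* and *Npas2*. In brown fat REV-ERBα is also known as a repressor of thermogenic genes.

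The libraries held between 12705969 and 25732258 counts, with a median of 17237377. *Ucp1*, the uncoupling protein of brown fat and a marker of cold exposure, had a mean of 985 ± 234 (SD, n = 7) normalised counts per 1000000 counts of the library (CPM) in WT30 and 16005 ± 552 (n = 5) in WT5. *Afdn* was not lower in the libraries labelled KO30 (154 to 231 CPM) than in WT30 (151 to 214 CPM), with a log2 fold change of -0.01 (SE 0.08, edgeR adjusted p = 0.992). At 5 °C it was 53.3 to 65.3 CPM in KO5 and 67.9 to 79.2 CPM in WT5 (log2 fold change -0.33, edgeR adjusted p = 0.116). This check does not bear out the KO30 label. However, a count over the whole gene can miss the loss of the floxed exons, which are not given in the sources used here. It also includes RNA of cells in which Cre is not active. The study measured Afadin protein in BAT as well, and reports that its rise with cold was smaller in FAKO than in control mice. It also shows Afadin protein at thermoneutrality and *Mllt4* mRNA by RT-qPCR for both genotypes, in figures whose values its text does not give. KO is used below as the name on the label. Summed markers of brown adipocytes (9 genes, *Ucp1* among them) ranged from 6938 to 8788 CPM at thermoneutrality and from 27883 to 35553 CPM at 5 °C. The sum is mostly *Ucp1* at 5 °C and hides members that moved apart. By edgeR, *Ucp1*, *Dio2*, *Fabp4* and *Plin1* rose with cold in control and KO-labelled mice. *Adipoq* (log2 fold change -0.77 in control and -0.50 in KO-labelled mice) and *Prdm16* (-0.66 and -0.35) fell. In KO-labelled mice only, *Pparg* fell and *Cox7a1* rose, and *Cidea* passed in neither.

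The promoters of 4 clock genes are shown because these genes span the responses described below: *Per3*, the member with the largest fall, *Arntl*, the member with the largest rise, and *Per1* and *Cry1*, which rose and hold the E-box that CLOCK and BMAL1 bind. The sequences are from RefSeq (GRCm38.p6) and give the 250 bases before a transcription start, 5′ to 3′ on the gene's strand, with the motifs found in capitals. Windows were found for 9 of the 10 members, all but *Per2*. The *Per3* window (chr4:151044666-151044915, minus strand) holds a pair of D-boxes TTATGTAA, the site bound by the DBP, TEF and HLF activators and by the repressor NFIL3, lying 205 to 198 and 158 to 151 bases before the start. The window of the first *Arntl* start (chr7:113207215-113207464, plus strand) holds none of the motifs searched. The first *Per1* window (chr11:69098699-69098948, plus strand) holds an E-box CACGTG 166 to 161 bases before the start, the letters TGACCT 137 to 132 bases before it, which read AGGTCA, the core of ROR and REV-ERB sites, on the other strand, and TGACG, the core of the cyclic AMP response element, 246 to 242 bases before it. The *Cry1* window (chr10:85185055-85185304, minus strand) holds the E-box CACGTG 60 to 55 bases before the start, the second E-box form AACGTG, which is CACGTT on the other strand, at 79 to 74, and TGACG at 8 to 4.
Per3: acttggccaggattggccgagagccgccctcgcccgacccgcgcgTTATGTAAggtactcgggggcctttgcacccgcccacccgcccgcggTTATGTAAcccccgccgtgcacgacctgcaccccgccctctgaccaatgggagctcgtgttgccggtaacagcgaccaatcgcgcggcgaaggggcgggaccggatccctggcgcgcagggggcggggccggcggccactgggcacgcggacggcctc
Arntl: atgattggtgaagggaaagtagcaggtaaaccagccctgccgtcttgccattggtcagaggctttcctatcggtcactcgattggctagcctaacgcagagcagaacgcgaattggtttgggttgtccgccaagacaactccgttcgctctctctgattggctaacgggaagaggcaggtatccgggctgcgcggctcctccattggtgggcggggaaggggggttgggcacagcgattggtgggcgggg
Per1: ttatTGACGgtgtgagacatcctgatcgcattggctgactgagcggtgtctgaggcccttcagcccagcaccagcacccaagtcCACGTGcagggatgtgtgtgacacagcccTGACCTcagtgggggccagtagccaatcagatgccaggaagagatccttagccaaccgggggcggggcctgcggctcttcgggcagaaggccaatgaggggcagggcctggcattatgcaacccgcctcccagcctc
Cry1: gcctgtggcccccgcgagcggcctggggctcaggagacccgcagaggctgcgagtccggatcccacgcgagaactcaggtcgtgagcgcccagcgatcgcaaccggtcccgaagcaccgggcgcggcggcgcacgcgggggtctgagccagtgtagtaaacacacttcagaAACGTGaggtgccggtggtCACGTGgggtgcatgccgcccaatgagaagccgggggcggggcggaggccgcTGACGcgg

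Each motif was searched on both strands. *Clock*, *Arntl* and *Per1* have more than 1 window, and a member counted if any of its windows held the motif. The shares are of single windows, so they are not shares of genes. In *Clock*, AGGTCA was found in 1 window, and in *Per1* the E-box and AGGTCA were found in the first window only. Of the 9 members with a window, the E-box CACGTG was found in 2 (*Per1* and *Cry1*) and in 6.02% of all 32851 windows of the same length. CACGTT was found in 3 (*Cry1*, *Cry2* and *Nr1d1*) against 3.85% of all windows. The D-box, searched as TTATGTAA or TTACGTAA, was found in 1 (*Per3*) against 0.931%. AGGTCA was found in 3 (*Clock*, *Per1* and *Nr1d2*) against 14.0%, and TGACG in 3 (*Per1*, *Cry1* and *Cry2*) against 17.8%. The full element TGACGTCA, in which TGACG is contained, was found in none of the 9 and in 1.55% of all windows. These are matches of letters and not measured binding.

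Whether 6 hours of cold changed the clock genes was asked separately in control and KO-labelled mice. In control mice 6 of the 10 clock genes rose (*Clock*, *Arntl*, *Npas2*, *Per1*, *Per2* and *Cry1*), 2 fell (*Per3* and *Nr1d1*) and 2 did not pass the threshold (*Cry2* and *Nr1d2*), at a Benjamini-Hochberg adjusted p below 0.05 in the quasi-likelihood test of edgeR. Of all 17286 genes tested, 65% passed in this comparison, 31.6% higher and 33.4% lower, so that a call by itself did not set the clock genes apart. In KO-labelled mice the same 6 rose, and *Per3*, *Nr1d1* and *Nr1d2* fell, where 68.6% of all tested genes passed, 33.7% higher and 34.9% lower. The median log2 fold change of the 10 was 0.91 in control and 0.77 in KO-labelled mice, beside -0.01 and -0.03 over all tested genes. The 5 °C and thermoneutral libraries did not overlap for 8 of the 10 genes in control mice and for 8 in KO-labelled mice, as for 46.4% and 40.4% of all tested genes. These counts and medians include *Npas2*, which passed the filter on low counts only through its 5 °C libraries. Scaling by library size alone moved the median of all genes to -0.14 and -0.34 and the split to 6 higher and 4 lower in control mice and to 5 higher and 4 lower in KO-labelled mice, and upper-quartile factors gave 6 higher and 4 lower in each. In bulk tissue, fewer cells of a type and less RNA per cell cannot be told apart.

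**Figure D1:**
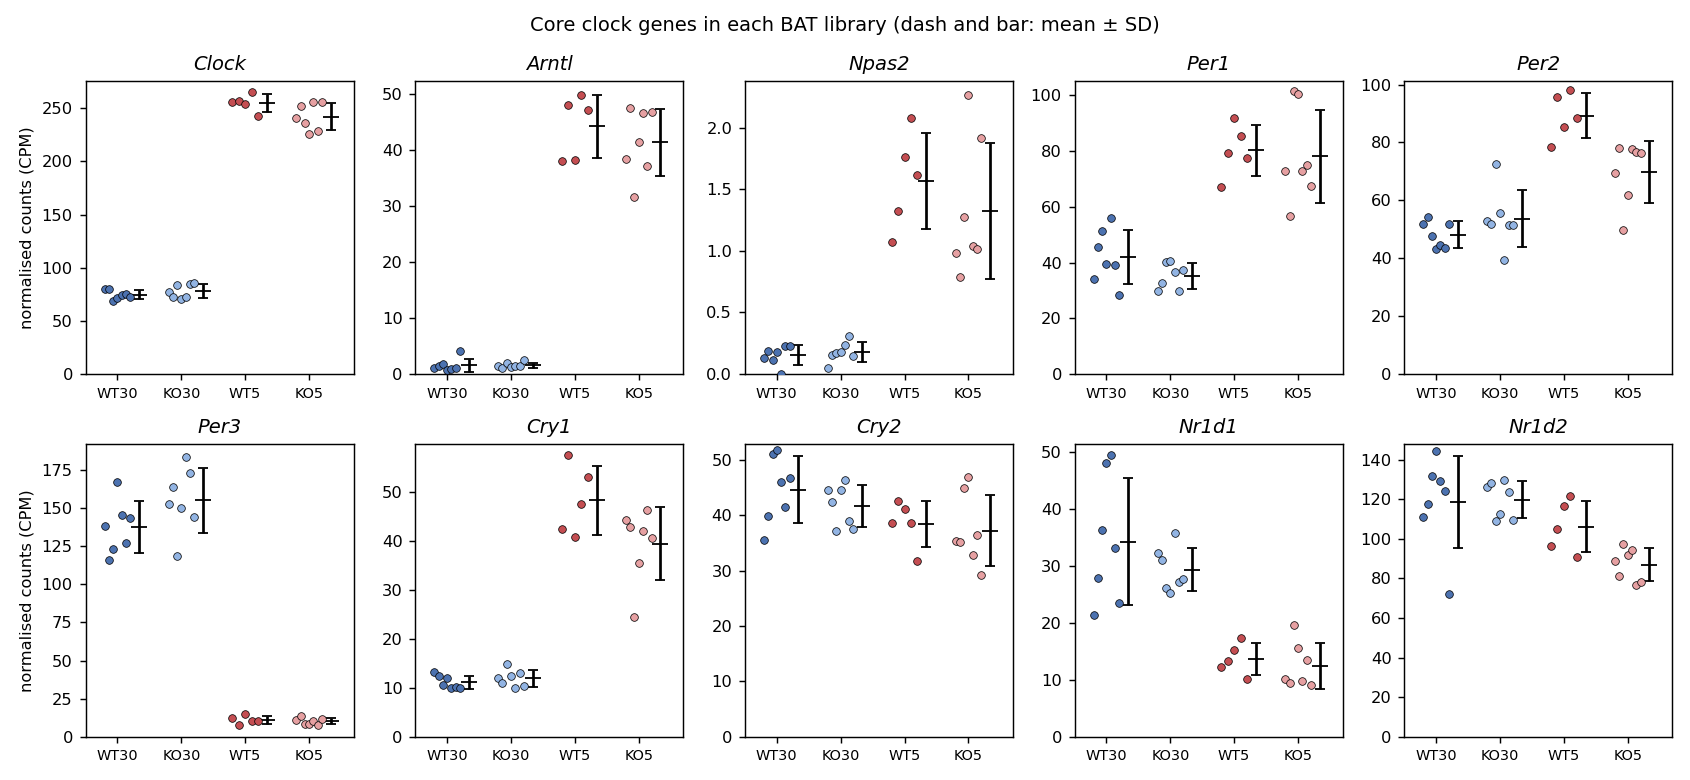
Each panel plots 1 clock gene as TMM-normalised CPM (linear axis from 0) in the 26 libraries, with 1 point per library, by group (WT30, KO30, WT5, KO5), and the dash and bar give the group mean ± SD. The 5 °C libraries of *Clock*, *Arntl* and *Cry1* all lie above the thermoneutral ones, those of *Per3* and *Nr1d1* all lie below, and *Cry2* overlaps between all groups.

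Among the activators, *Clock* (ENSMUSG00000029238.11, chr5:76209868-76304792 in mm10, minus strand), a basic helix-loop-helix factor, ranged from 68.8 to 80.3 CPM in WT30 (median 74.7) and from 70.2 to 86.0 CPM in KO30 (median 76.8). In the 5 WT5 libraries it was 255, 256, 254, 266 and 243 CPM, and in KO5 it ranged from 226 to 256 CPM (median 241). All 12 cold libraries were above all 14 thermoneutral ones. The log2 fold change was 1.77 (SE 0.06) in control mice, a 3.42-fold rise, and 1.63 (SE 0.05) in KO-labelled mice, a 3.10-fold rise (edgeR adjusted p = 1.38e-18 and 7.96e-19). *Clock* also had the smallest spread within groups of the 10 members, with an SD of 0.09 on the log2 scale.

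*Arntl* (ENSMUSG00000055116.8, chr7:113207465-113314126, plus strand), the obligate partner of CLOCK, ranged from 0.665 to 4.13 CPM in WT30 (median 1.10) and from 1.17 to 2.497 CPM in KO30 (median 1.41). It was 38.1, 48.0, 38.3, 49.7 and 47.1 CPM in WT5 and ranged from 31.7 to 47.5 CPM in KO5 (median 41.3). The thermoneutral libraries were low and every cold library was far above them. This was the largest response of the 10 genes, with a log2 fold change of 4.74 (SE 0.26) in control mice (26.7-fold) and 4.70 (SE 0.25) in KO-labelled mice (25.9-fold, edgeR adjusted p = 1.23e-14 and 5.56e-15). The highest thermoneutral value, 4.13 CPM in WT30 replicate 7, stood apart from the other 6 WT30 libraries, which lay between 0.665 and 1.77 CPM. Exons of *Arntl* share 33 bases with Gm45355 on the opposite strand.

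*Npas2* (ENSMUSG00000026077.15, chr1:39193731-39363236, plus strand), which can take the place of CLOCK, was the least abundant of the 10, at 0 to 5 counts per library in WT30 and 1 to 6 in KO30. It was 1.07, 1.32, 1.76, 2.08 and 1.61 CPM in WT5 and 0.786 to 2.26 CPM in KO5 (median 1.04), against medians of 0.181 CPM in WT30 and 0.175 CPM in KO30. The cold libraries did not overlap the thermoneutral ones. *Npas2* passed the filter on low counts only through the cold libraries, so this separation and its call are not independent of the filter. The log2 fold change was 3.26 (SE 0.34) in control and 2.83 (SE 0.32) in KO-labelled mice (edgeR adjusted p = 3.53e-09 and 1e-08), and its size rests on these few thermoneutral counts.

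The 3 *Per* genes encode the period proteins, the limiting part of the repressor complex, and *Per1* and *Per2* can also be induced directly by hormones and cyclic AMP. *Per1* (ENSMUSG00000020893.17, chr11:69095217-69109960, plus strand) ranged from 28.3 to 56.1 CPM in WT30 (median 39.5) and from 29.6 to 40.4 CPM in KO30 (median 36.6). It was 67.2, 79.2, 91.8, 85.2 and 77.5 CPM in WT5 and ranged from 56.7 to 101 CPM in KO5 (median 72.8). The cold libraries lay above the thermoneutral ones, but the gap was narrow beside the spread of the groups. *Per1* rose 1.91-fold in control mice (log2 0.94, SE 0.15) and 2.22-fold in KO-labelled mice (log2 1.15, SE 0.14, edgeR adjusted p = 2.95e-06 and 2.93e-08).

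*Per2* (ENSMUSG00000055866.9, chr1:91415982-91459324, minus strand) ranged from 43.1 to 54.4 CPM in WT30 (median 47.6) and from 39.5 to 72.6 CPM in KO30 (median 51.9). It was 78.6, 95.7, 85.5, 98.3 and 88.5 CPM in WT5, and in KO5 it ranged from 49.8 to 78.0 CPM (median 76.4). WT5 lay above WT30 throughout, while KO5 overlapped KO30. *Per2* rose 1.85-fold in control mice (log2 0.89, SE 0.11) and 1.30-fold in KO-labelled mice (log2 0.38, SE 0.10, edgeR adjusted p = 1.06e-07 and 0.00194). With library size alone as the scaling, the rise in KO-labelled mice was 0.10 on the log2 scale and did not pass the test (edgeR adjusted p = 0.522).

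*Per3* (ENSMUSG00000028957.12, chr4:151003652-151044665, minus strand), the *Per* gene that the loop is known to need least, moved the other way. It ranged from 116 to 167 CPM in WT30 (median 138) and from 118 to 183 CPM in KO30 (median 152), and was 12.1, 7.87, 14.8, 10.3 and 10.5 CPM in WT5 and 7.93 to 13.8 CPM in KO5 (median 10.1). Every cold library was far below every thermoneutral one. The log2 fold change was -3.62 (SE 0.16) in control and -3.92 (SE 0.14) in KO-labelled mice (edgeR adjusted p = 1.49e-16 and 2.61e-18). *Per3* thus fell in both genotypes while *Per1* and *Per2* rose.

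The cryptochromes bind the period proteins and block CLOCK and BMAL1 directly. *Cry1* (ENSMUSG00000020038.10, chr10:85131700-85185064, minus strand) ranged from 9.89 to 13.1 CPM in WT30 (median 10.5) and from 9.91 to 14.8 CPM in KO30 (median 11.9). It was 42.3, 57.4, 40.8, 47.5 and 53.1 CPM in WT5 and ranged from 24.4 to 46.3 CPM in KO5 (median 42.1). Cold and thermoneutral libraries did not overlap, and the lowest KO5 library was replicate 24. *Cry1* rose 4.31-fold in control mice (log2 2.11, SE 0.13) and 3.31-fold in KO-labelled mice (log2 1.73, SE 0.12, edgeR adjusted p = 9.51e-14 and 9.38e-13).

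*Cry2* (ENSMUSG00000068742.11, chr2:92403646-92434043, minus strand) ranged from 35.4 to 51.7 CPM in WT30 (median 46.0) and from 37.1 to 46.3 CPM in KO30 (median 42.4). It was 38.5, 42.5, 41.0, 38.5 and 31.6 CPM in WT5 and ranged from 29.1 to 46.8 CPM in KO5 (median 35.3). All 4 groups overlapped. The log2 fold change was -0.22 (SE 0.11) in control and -0.16 (SE 0.10) in KO-labelled mice, neither past the threshold (edgeR adjusted p = 0.0814 and 0.143), and it passed in 4 of 8 other settings in control and in 3 of 8 in KO-labelled mice. Exons of *Cry2* share 295 bases, 4.67% of their length, with D930015M05Rik on the opposite strand, and the strand setting of the counting is not given in the sources used here.

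*Nr1d1* (ENSMUSG00000020889.11, chr11:98767932-98775333, minus strand), which encodes REV-ERBα, ranged from 21.4 to 49.4 CPM in WT30 (median 33.1) and from 25.3 to 35.8 CPM in KO30 (median 27.7). It was 12.2, 13.3, 15.2, 17.4 and 10.1 CPM in WT5 and ranged from 9.08 to 19.7 CPM in KO5 (median 10.1). All cold libraries were below all thermoneutral ones. The log2 fold change was -1.32 (SE 0.21) in control and -1.24 (SE 0.19) in KO-labelled mice (edgeR adjusted p = 4.01e-06 and 1.75e-06). Its exons share 263 bases, 8.55% of their length, with *Thra*, a thyroid hormone receptor gene on the opposite strand, which fell by 1.42 in control and by 1.40 in KO-labelled mice on the log2 scale, and the part of the shared reads in the *Nr1d1* value was not tested.

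*Nr1d2* (ENSMUSG00000021775.10, chr14:18204054-18239127, minus strand), which encodes REV-ERBβ, ranged from 71.9 to 144 CPM in WT30 (median 124) and from 109 to 129.5 CPM in KO30 (median 124). It was 96.5, 105, 116, 122 and 90.8 CPM in WT5 and ranged from 76.5 to 97.4 CPM in KO5 (median 88.8). KO5 lay below KO30 throughout, while WT5 overlapped WT30. The log2 fold change was -0.16 (SE 0.11, edgeR adjusted p = 0.22) in control and -0.46 (SE 0.10, edgeR adjusted p = 3e-04) in KO-labelled mice. Without WT30 replicate 7, the lowest thermoneutral library, the value in control mice was -0.28 and passed the test (edgeR adjusted p = 0.00647). The log2 fold changes of *Nr1d1* were farther from 0 than those of *Nr1d2* in both genotypes, a difference that was not tested.

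**Figure D2:**
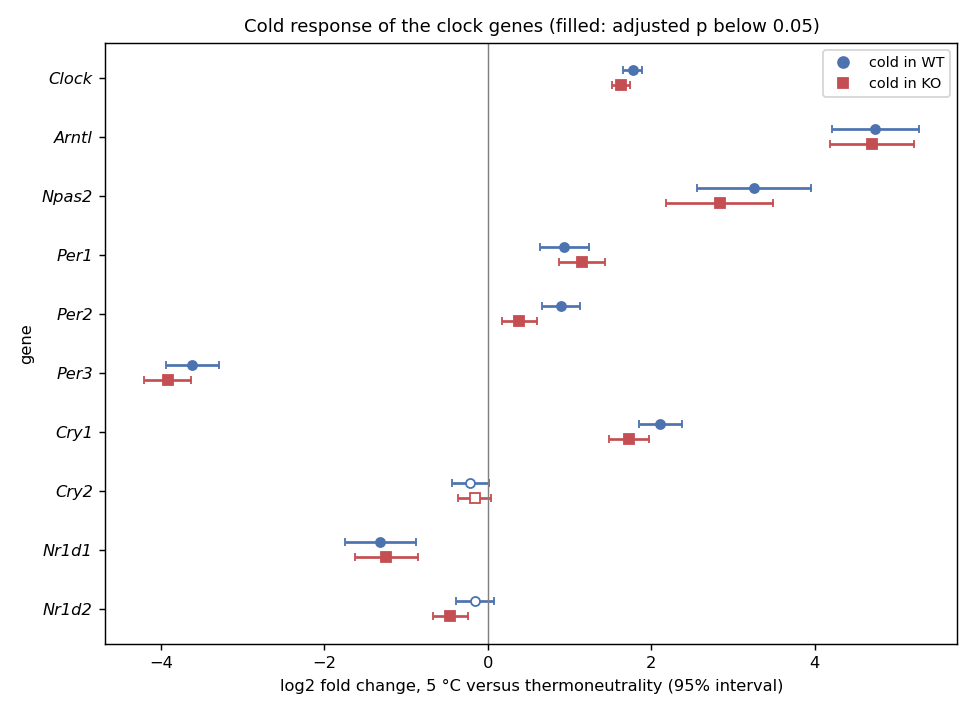
Log2 fold changes at 5 °C versus thermoneutrality (x axis) are plotted for the 10 clock genes (y axis) in control mice (circles) and KO-labelled mice (squares), with bars for 95% intervals and filled symbols for an edgeR adjusted p below 0.05. *Arntl* lies farthest to the right at 4.74 and 4.70, *Per3* farthest to the left at -3.62 and -3.92, and *Cry2* is open in both genotypes.

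Divided by exon length, the order of the clock transcripts changed with cold. At thermoneutrality in WT30, *Nr1d2* was highest at 21.9 CPM per kb of exon, followed by *Per3* at 14.3, *Nr1d1* at 11.1, *Per2* at 8.23, *Per1* at 7.45, *Cry2* at 7.06, *Clock* at 5.44, *Cry1* at 3.34, *Arntl* at 0.210 and *Npas2* at 0.0317. Neighbours from *Nr1d2* down to *Clock* overlapped in their range over libraries, whereas *Clock*, *Cry1*, *Arntl* and *Npas2* were each separate from the next. In WT5 the order was *Nr1d2* at 19.6 CPM per kb, *Clock* at 18.6, *Per2* at 15.3, *Cry1* at 14.4, *Per1* at 14.2, *Cry2* at 6.08, *Arntl* at 5.88, *Nr1d1* at 4.44, *Per3* at 1.16 and *Npas2* at 0.327. Of the neighbours in WT5, *Clock* and *Per2*, *Per1* and *Cry2*, *Nr1d1* and *Per3*, and *Per3* and *Npas2* were separate, and the others overlapped. *Per3* went from rank 2 to rank 9 in both genotypes. In KO5 *Clock* was highest at 17.6 CPM per kb, ahead of *Nr1d2* at 16.1, but their ranges overlapped. KO30 had *Nr1d2* highest at 22.2 CPM per kb and *Per3* next at 16.1, which did not overlap.

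The genes that extend the loop moved mostly downwards. Of 10 transcription factors of the secondary loop and the clock's output, 3 rose, 6 fell and 1 did not pass in control mice, and 4 rose and 6 fell in KO-labelled mice, with medians of -1.08 and -0.88 on the log2 scale. The falls were led by *Dbp* (log2 -3.23 in control and -2.94 in KO-labelled mice), a D-box activator, by *Bhlhe40* (-2.76 and -2.44), a repressor that competes for E-boxes, and by *Hlf* (-2.22 and -2.36), another D-box activator. The rises were led by *Nfil3* (2.42 and 2.52), the repressor at D-boxes, then *Rorb* (0.71 and 0.56), a receptor that competes with the REV-ERBs, and *Ciart* (0.62 and 0.44), a repressor of CLOCK and BMAL1. Of 27 regulators of the clock proteins (kinases, ubiquitin ligases, phosphatases and cofactors), 11 rose, 7 fell and 9 did not pass in control mice, and 13, 8 and 6 in KO-labelled mice, with medians of 0.09 and 0.14. Among these, the kinase gene *Gsk3a* (0.97 and 0.87), the deubiquitinase gene *Usp2* (0.87 and 0.72) and the coactivator gene *Crebbp* (0.81 and 0.46) rose, while *Fbxl21* (-2.49 and -2.63) and *Btrc* (-1.22 and -1.21), which encode ubiquitin ligase subunits, and *Timeless* (-1.37 and -1.84) fell. The size for *Fbxl21* rests on few reads, with means of 1.27 CPM in WT30 and 0.23 CPM in WT5 and 0 CPM in the lowest KO5 library. *Rorb* was also low, with means of 1.46 CPM in WT30 and 2.39 CPM in WT5. The counts of genes that rose or fell stand beside the 65% and 68.6% of all tested genes that passed, and neither list was tested against other genes.

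Summed markers of some other cells also differed between the temperatures, while those of red blood cells, fibroblasts and skeletal muscle overlapped widely. Summed neutrophil markers (5 genes) were 0.349 to 3.67 CPM at thermoneutrality, with *Ly6g* at 0 in both thermoneutral groups, and 3.13 to 44.3 CPM at 5 °C. Macrophage markers (5 genes) ranged from 112 to 181 CPM at thermoneutrality and from 159 to 240.04 CPM at 5 °C, endothelial markers (5 genes) from 415 to 604 and from 595 to 795, and red blood cell markers (5 genes) from 233 to 1120.0 and from 417 to 1497. These sums hide members that moved apart, since the macrophage genes *Csf1r* (log2 -1.03 in control and -0.76 in KO-labelled mice) and *Adgre1* (-0.68 and -0.51) fell while *Cd163* (0.78 and 1.29) and *Mrc1* (0.78 and 1.27) rose, and the endothelial genes *Emcn* (-0.62 and -0.75) and *Tek* (-0.73 and -0.95) fell while *Pecam1*, *Kdr* and *Cdh5* rose, all named after their values were seen. White adipocyte markers (4 genes) were lower in the cold, at 288 to 513 CPM before and 68.1 to 145 after, and lymphocyte markers (6 genes) had medians of 4.48 CPM in WT30, 4.97 in KO30, 1.39 in WT5 and 1.37 in KO5, and the highest KO5 library was at 18.1. Nerve and Schwann cell markers (5 genes) ranged from 44.8 to 62.0 CPM and then from 23.9 to 42.2, fibroblast markers (5 genes) from 996 to 2751 and then from 923 to 1594, and skeletal muscle markers (7 genes) spread from 4.19 to 5447 and from 1.24 to 7416. In WT30, KO30, WT5 and KO5 the fibroblast medians were 1280, 1141, 1376 and 1405 CPM. The muscle medians were 62.9, 787, 801 and 788 CPM, and the red blood cell medians 424, 381, 455 and 841 CPM. The part of all these cell types in the clock gene values was not tested.

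The effect of the label KO was asked at each temperature. At thermoneutrality none of the 10 clock genes differed between KO30 and WT30 by edgeR's quasi-likelihood test, and DESeq2 called none, where 0.081% of all tested genes passed by edgeR. None of the 10 had an unadjusted p below 0.05, beside 7.65% of all tested genes. The log2 fold changes ran from -0.25 (*Per1*) to 0.17 (*Per3*) and adjusted p-values from 0.688 to 0.992. For *Clock*, the most precise, the 95% interval of the difference was -0.04 to 0.17, and for *Arntl* and *Npas2*, which were low in both groups, it was as wide as -0.63 to 0.53 and -0.70 to 1.04. KO30 and WT30 overlapped for all 10 genes, as for all but 0.249% of genes tested.

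At 5 °C again none of the 10 passed by edgeR's quasi-likelihood test or by DESeq2, where 0.139% of all tested genes passed by edgeR. An unadjusted p below 0.05 was found for 3 of the 10, beside 13.4% of all tested genes. All 10 log2 fold changes were below 0, with a median of -0.13 beside 0.02 over all tested genes. Those of *Per1* (-0.04) and *Cry2* (-0.05) were near 0, and *Per1*, *Per3* and *Cry2* changed sign when single libraries were left out. Some members also deviated together within groups, as given below, so the 10 are not separate observations. *Per2*, at 78.6 to 98.3 CPM in WT5 and 49.8 to 78.0 CPM in KO5, was the lowest relative to WT5 at -0.35 (SE 0.11, edgeR adjusted p = 0.17). All 7 KO5 libraries lay below all 5 WT5 libraries, where 1.11% of tested genes did not overlap and 0.781% were separate in this direction, but the nearest pair differed by less than 1 CPM. *Cry1* was at -0.29 (SE 0.12, edgeR adjusted p = 0.3) and *Nr1d2* at -0.29 (SE 0.11, edgeR adjusted p = 0.265), with overlapping groups. The 95% interval was -0.59 to -0.12 for *Per2* and -0.19 to 0.04 for *Clock*. The summed nuclear-retained RNAs *Neat1*, *Malat1*, *Meg3* and *Kcnq1ot1*, a sign of RNA makeup, also differed at 5 °C, at 14840 to 16273 CPM in WT5 and 10340 to 13577 CPM in KO5, and were 8951 to 10573 CPM in WT30 and 10423 to 11779 CPM in KO30, and their part in these values was not tested.

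Whether the cold response itself differed between the genotypes was tested with the interaction term. None of the 10 clock genes passed by edgeR's quasi-likelihood test or by DESeq2, where 1.16% of all tested genes passed by edgeR. An unadjusted p below 0.05 was found for 2 of the 10, beside 16.2% of all tested genes. The difference, KO minus WT, was -0.51 for *Per2* (SE 0.15, 95% interval -0.82 to -0.19, edgeR adjusted p = 0.0984) and -0.38 for *Cry1* (SE 0.17, 95% interval -0.74 to -0.03, edgeR adjusted p = 0.268). For *Arntl* it was -0.05, with an interval of -0.78 to 0.69. The extended loop and regulator lists likewise held no gene past the threshold in either KO comparison or in the difference, by edgeR, and at an unadjusted p below 0.05 they held 1 of 10 and 1 of 27 at thermoneutrality, 1 and 4 at 5 °C, and 1 and 3 in the difference, beside 7.65%, 13.4% and 16.2% of all tested genes.

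**Figure D3:**
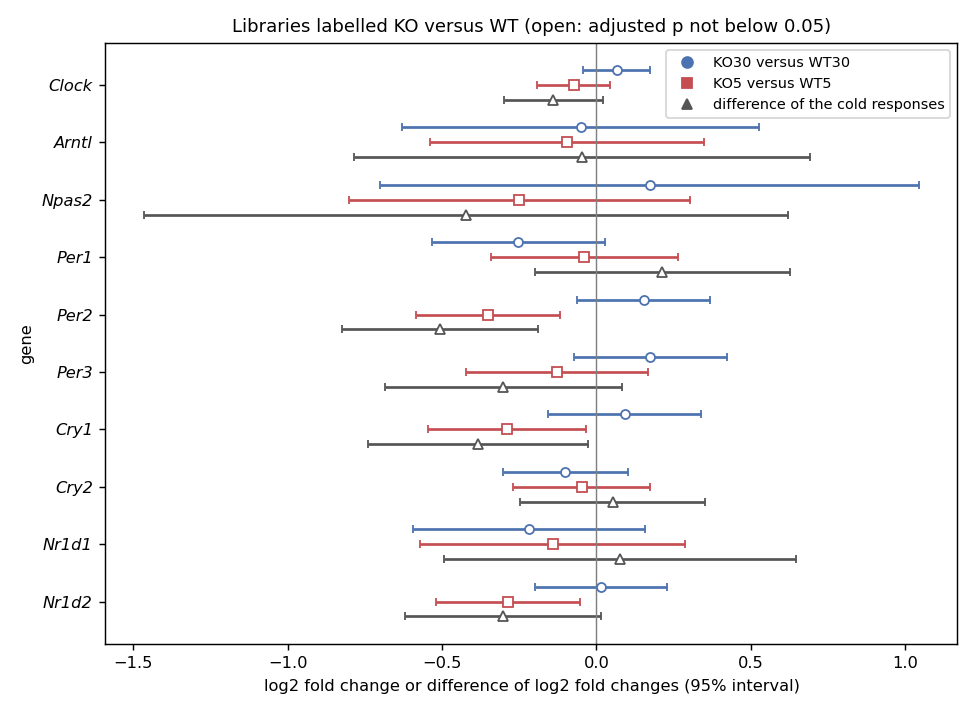
Log2 fold changes of KO30 versus WT30 (circles) and KO5 versus WT5 (squares) and the difference of the cold responses (triangles) are plotted on the x axis for each clock gene (y axis), with bars for 95% intervals. All symbols are open because no adjusted p is below 0.05, and the intervals of *Per2* at 5 °C (-0.59 to -0.12) and of its difference (-0.82 to -0.19) lie below 0.

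The members also varied among animals of the same group. The SD within groups, on the log2 CPM scale, was 0.47 for *Arntl* and for *Npas2*, 0.37 for *Nr1d1*, 0.27 for *Per1*, 0.25 for *Per3*, 0.23 for *Cry1*, 0.21 for *Nr1d2*, 0.20 for *Per2* and 0.19 for *Cry2*. Only 2.93% of tested genes had a smaller SD than *Clock*, and 68.4% had a smaller SD than *Nr1d1*. The SD falls with the level of a gene, and among the 1000 genes nearest in mean level the shares were 14.8% for *Clock*, 93.9% for *Nr1d1*, 93.7% for *Arntl* and 90.8% for *Per1*. The level matched is the mean over all 26 libraries, which for *Arntl* lies between its thermoneutral and 5 °C levels. The SD of its CPM was 74.7% of the mean in WT30 and 30.1% in KO30, but 12.7% in WT5 and 14.5% in KO5. Its share thus does not show a large spread for its level within each group. Averaged over the 10 genes, WT30 replicate 7 lay farthest from its group means, by 0.41, with the highest *Arntl* and the lowest *Nr1d2* (71.9 CPM) of its group. KO5 replicate 24 was next, by 0.34, with the lowest *Per2* (49.8 CPM) and *Cry1* (24.4 CPM) and the highest *Nr1d1* (19.7 CPM) of its group. Without both libraries the counts of clock genes past the threshold were 9 in control and 9 in KO-labelled mice for cold and 0 in the other comparisons. Over all genes, WT30 replicate 7 had a chi-square per gene of 148 to 208 with the other WT30 libraries. Among those others it was 7.22 to 31.7. This library also had the highest TMM factor of all (1.29) and the lowest *Ucp1* (652 CPM) and *Afdn* (151 CPM) of its group. Leaving it out took genes past the threshold in KO30 versus WT30 from 10 higher and 4 lower to 62 and 31. The part of this in its clock gene values was not tested.

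**Figure D4:**
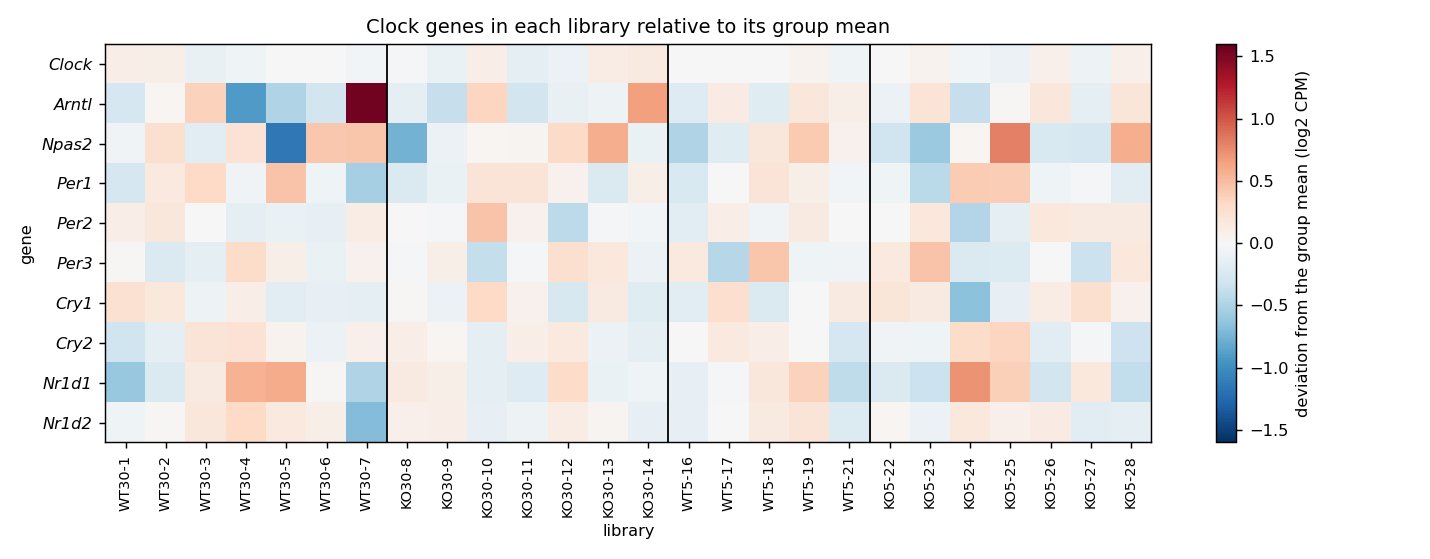
Colour gives the deviation of each clock gene (y axis) from its group mean on the log2 CPM scale in each of the 26 libraries (x axis), with vertical lines between the 4 groups. WT30 replicate 7 is high for *Arntl* and low for *Nr1d2*, and KO5 replicate 24 is high for *Nr1d1* and low for *Per2* and *Cry1*.

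Whether the clock genes deviated together was tested over the 26 libraries after removing the group means, with 100000 permutations of libraries within groups and Benjamini-Hochberg adjustment over the 45 pairs. The permutations treat the libraries of a group as exchangeable, but WT30 replicate 7 stood apart from its group over all genes, and some other libraries were alike. KO30 replicates 10 and 11 had a chi-square per gene of 4.70, against 25.1 to 70.1 with the other KO30 libraries. For KO5 replicates 24 and 25 it was 14.1, against 44.3 to 173 with the other KO5 libraries. The part of this likeness in the pairs was not tested. With Pearson's r, 9 pairs passed 0.05, 4 positive and 5 negative, and 9 passed with Spearman's rho, 7 of them shared. With library size alone as the scaling 11 pairs passed, of which 4 were among the 9 and 7 were not. *Per2* and *Cry1* were the closest pair (r = 0.78, rho = 0.73, permutation p = 8e-05, adjusted p = 0.00345), and r was 0.64 without the 2 libraries farthest in *Per2*. *Cry2* and *Nr1d1* (r = 0.74, rho = 0.73, permutation adjusted p = 0.00345, 0.72 without 2 libraries) and *Nr1d1* and *Nr1d2* (r = 0.67, rho = 0.72, permutation adjusted p = 0.00439, 0.66 without 2) also moved together. *Cry1* and *Nr1d1* moved in opposite directions (r = -0.55, rho = -0.49, permutation adjusted p = 0.0272, -0.37 without 2 libraries, Spearman adjusted p = 0.061). These 4 pairs also passed with library size alone as the scaling, at 0.86, 0.64, 0.57 and -0.50.

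The other 5 pairs did not pass with library size alone as the scaling, some of them narrowly. *Clock* and *Cry2* had r = -0.65 (rho = -0.68, permutation adjusted p = 0.00345) with TMM factors but 0.01 with library size alone. *Per2* and *Cry2* went from -0.56 (rho = -0.57, permutation adjusted p = 0.0262) to -0.13. *Per2* and *Nr1d1* (-0.60, rho = -0.61, permutation adjusted p = 0.00495) and *Per1* and *Nr1d1* (0.65, rho = 0.62, permutation adjusted p = 0.0252) were at -0.48 and 0.55 with library size alone, just above the threshold at adjusted p = 0.0559 and 0.0565, and the latter pair had r = -0.39 within KO30. *Arntl* and *Nr1d2* (-0.73, rho = -0.41, permutation adjusted p = 0.0262, Spearman adjusted p = 0.132) fell to -0.28 without WT30 replicates 4 and 7. The size of r over all 26 libraries thus rests largely on those libraries. Within KO30 and KO5, which do not hold them, r was -0.70 and -0.35. The 7 pairs that passed with library size alone included *Clock* with *Arntl* (r = 0.66, against 0.23 with TMM factors), *Clock* with *Per2* (0.72 against 0.43) and *Arntl* with *Per2* (0.66 against 0.41). Over 20 relations of the members with the TMM factor and with the summed nuclear-retained RNAs, 1 passed, that of *Per1* with the TMM factor (r = -0.67, rho = -0.61, permutation p = 0.00148, adjusted p = 0.0296), and r was -0.51 without the 2 libraries farthest in that factor. *Per1* with the nuclear-retained sum had r = 0.50 (rho = 0.49, permutation p = 0.027, adjusted p = 0.165, 0.47 without 2 libraries).

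**Figure D5:**
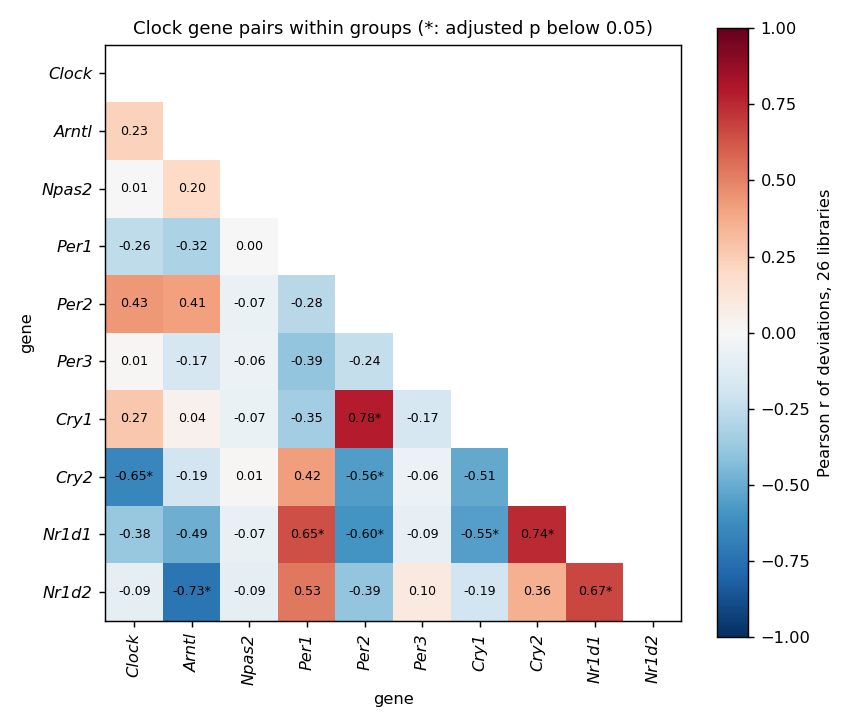
Each cell gives Pearson's r between 2 clock genes (x and y axes) over deviations from the group means in 26 libraries, with an asterisk where the permutation adjusted p over 45 pairs is below 0.05. The strongest positive cell is *Per2* with *Cry1* at 0.78 and the strongest negative is *Arntl* with *Nr1d2* at -0.73.

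Among the 14246 tested genes with a mean of at least 1 CPM, the gene with the highest Pearson's r of deviations with each member was never another clock gene. The highest r was 0.86 for *Fam126b* with *Clock*, 0.80 for *Lrfn4* with *Arntl*, 0.70 for *Ldha* with *Npas2*, 0.85 for *Tns2* with *Per1*, 0.81 for *Ilkap* with *Per2*, 0.81 for *Cnp* with *Per3*, 0.86 for *Kpna4* with *Cry1*, 0.88 for *Armcx4* with *Cry2*, 0.80 for *Zkscan1* with *Nr1d1* and 0.89 for *Fcho2* with *Nr1d2*. The second highest were *Zc3h14*, *Erp29*, *Rbp4*, *Rab11b*, *Fem1b*, *Gm11266*, *Zfp451*, *Adap2*, *Catsperg1* and *Ttbk2* in the same order, at 0.69 to 0.85. The most opposed were *Ptprj*, *Rgs5*, *Epsti1*, *Ttc30a1*, *AA986860*, *Srf*, *Fbxl4*, *Mrpl24*, *Dnajc24* and *Nagpa*, at -0.90 to -0.67. The most opposed depended on the scaling, going with library size alone from -0.90 to -0.12 for *Mrpl24* with *Cry2*, from -0.82 to -0.14 for *Fbxl4* with *Cry1*, from -0.85 to -0.30 for *Nagpa* with *Nr1d2* and from -0.77 to 0.26 for *Ptprj* with *Clock*. By rank the order also changed, with a rho of 0.42 for *Lrfn4* with *Arntl*, behind 649 other genes, and *Fcho2* with *Nr1d2* had r = 0.06 within KO30. These are the extremes of a search over all those genes in 26 libraries that share depth and scaling, and are given without a test.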

How the data were processed

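Total RNA was sequenced after ribosomal RNA removal with a stranded kit (reads of 100 bases). The authors aligned reads with STAR (2.5.2b) to mm10 and counted them per gene with featureCounts (1.5.2, GENCODE annotation), and deposited raw counts, which were used here. GENCODE M21 gave symbols for 50376 of 50686 identifiers. The 26 samples were grouped by the label group. Within groups, the closest of 73 pairs of samples differed by a chi-square of 4.70 per gene, so each counted as 1 replicate.

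Counts were fitted with edgeR 4.0.16 in R 4.3.3 (TMM factors, filterByExpr leaving 17286 genes, quasi-likelihood test in legacy mode, model with 1 mean for each of 4 groups over all 26 samples, as in the study's methods), with Benjamini-Hochberg adjustment over all tested genes and a threshold of 0.05. CPM are normalised by TMM, and deviations use log2 CPM with a prior count of 2. Intervals are 95% with 22 residual degrees of freedom and cover the spread between samples. Exon lengths are unions over transcripts in M21. Alternatives were DESeq2 1.42.0, library size alone, upper-quartile factors, no filter, at least 10 counts in every sample, the revised quasi-likelihood method, robust empirical Bayes, only the groups compared, and each replicate left out.

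The members and gene lists were chosen with earlier results of these data known. Named genes are all members, *Afdn*, *Ucp1*, exon-overlapping genes, the 3 largest changes each way by cold in control mice in the 2 clock-related lists, and for each member the 2 most like and the 1 most opposed gene. The fits without WT30 replicate 7 and KO5 replicate 24, the correlations by rank and with library size alone, and the relations with the TMM factor and nuclear-retained RNAs, were added after seeing the data. Lists are described by counts and medians, with no set test. Scripts were tested on simulated data.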

Additional observations from a re-analysis of the deposited data

Results flagged for a closer look

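*Arntl* in WT30 replicate 7 was 4.13 CPM, while the other 6 WT30 libraries lay between 0.665 and 1.77 CPM, which placed it past Dixon's 95% critical value for a group of 7. It was the only one of 40 combinations of a clock gene and a group to do so, where chance gives about 1 in 20. The library also stood apart from the rest of WT30 over all genes, as given above. Without this library the log2 fold change of *Arntl* between KO30 and WT30 went from -0.05 to 0.46.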

How the results depend on the processing

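The number of clock genes past the threshold was 8 for cold in control mice (8 to 10 under other settings, 8 to 9 with a library left out), 9 in KO-labelled mice (9 to 10 and 9 to 10) and 0 in the other 3 comparisons under every setting run. With at least 10 counts in every sample, *Npas2* was not tested. Library size alone moved the median of all genes from -0.02 to 0.13 at thermoneutrality and turned the direction of *Arntl* (0.0428) and *Cry2* (0.0469) in KO30 against WT30, of *Per1* (-0.0129), *Cry2* (-0.16) and *Nr1d1* (-0.18) in the difference of the cold responses, and of the relation of *Ptprj* with *Clock* (0.26). The cause was not tested. Leaving out libraries gave ranges that cross 0 in KO30 against WT30 for *Arntl* (-0.18 to 0.46, and 0.45 without WT30 replicate 7 and KO5 replicate 24) and *Nr1d2* (-0.0598 to 0.0697, and -0.0747 without those 2). They crossed 0 in KO5 against WT5 for *Per1* (-0.11 to 0.0224), *Per3* (-0.23 to 0.00052) and *Cry2* (-0.11 to 0.0038), and in the difference for *Arntl* (-0.55 to 0.10), *Cry2* (-0.0112 to 0.10) and *Nr1d1* (-0.0667 to 0.18). None of these passed the test. DESeq2 called more of all genes, 31 higher and 9 lower in KO30 against WT30 and 90 higher and 72 lower in KO5 against WT5, where edgeR called 14 and 24, but no clock gene. No paired analysis was possible because the groups share no replicate numbers. Depth limits *Npas2* at thermoneutrality, where no library held more than 6 counts.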

Other observations

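Genes that respond to glucocorticoids and to cyclic AMP, signals known to induce *Per1*, also moved with cold. The lists were chosen with earlier results of these data known, and cold cannot be told apart from time of day here. A part of these signals in the *Per1* values was not tested. All 8 glucocorticoid-responsive genes listed (*Fkbp5*, *Tsc22d3*, *Zbtb16*, *Sgk1*, *Klf9*, *Mt1*, *Mt2* and *Pdk4*) rose in control and in KO-labelled mice by edgeR's quasi-likelihood test, with median log2 fold changes of 2.10 and 2.43, where 31.6% and 33.7% of all tested genes rose. Of 12 CREB-dependent and immediate early genes, 7 rose and 1 fell in control mice and 8 rose in KO-labelled mice, with medians of 0.89 and 1.20. The gene that fell was *Egr1*, an immediate early transcription factor, named after its value was seen. It had log2 fold changes of -1.75 (SE 0.75) in control mice and -1.04 (SE 0.67) in KO-labelled mice (edgeR adjusted p = 0.0428 and 0.167). *Egr1* varied widely among the WT30 libraries, from 1.70 to 73.4 CPM, which span its range in WT5 of 4.03 to 21.8 CPM. None of these genes passed in either KO comparison or in the difference of the cold responses by edgeR, and at an unadjusted p below 0.05 the CREB list held 5 genes at thermoneutrality and 0 in the others, and the glucocorticoid list 0, 2 and 1, beside 7.65% of all tested genes at thermoneutrality, 13.4% at 5 °C and 16.2% in the difference.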
